A study of Mus musculus with 4 samples.

Results

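The endothelin system of E14 mouse embryonic stem cells was examined after brief exposure to retinoic acid. It comprises the peptide ligands Edn1, Edn2 and Edn3, the receptors Ednra and Ednrb, and the converting enzymes Ece1 and Ece2. All probes carrying one of these 7 symbols in the platform annotation were taken, which gave 13 of the 45281 probes on the array and 6 of the 7 genes. Ednra, the receptor that prefers endothelins 1 and 2, had no probe under its symbol and was not analysed here. The 2 groups were cells treated for 2 h with ATRA (all-trans retinoic acid, the ligand of the retinoic acid receptors) and cells treated for 2 h with DMSO, its vehicle, with 2 single-colour bead arrays each. Both groups were the same wild-type line grown in serum medium with LIF, a cytokine that maintains the stem cell state; no source used here gives the dose of ATRA. The DMSO arrays are called untreated in their source name, and the treatment field was followed. The family was selected on a measured value, the difference of Edn2 between ATRA and DMSO, which stood among the largest rises in an earlier analysis of the same arrays. The ATRA and DMSO values of its members are therefore a description, with no test.

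Endothelins are short peptides that constrict blood vessels and also guide cells in the embryo. Each is made as a long precursor, which furin-like convertases cut to an inactive intermediate and a membrane metallopeptidase, the endothelin-converting enzyme, cuts to the active peptide. The receptors couple to heterotrimeric G proteins, through which they activate phospholipase C-beta, raise intracellular calcium and activate protein kinase C. In the mouse embryo, Edn1 acting on Ednra patterns the lower jaw, and Edn3 acting on Ednrb is needed for the neural crest cells that form melanocytes and the ganglia of the distal gut. Edn2 is known for its part in follicle rupture in the ovary.

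Of the deposited data, 40.1% and 41.8% of probes were detected on the ATRA arrays and 42.3% and 41.2% on the DMSO arrays, at a detection p-value under 0.05. The lowest intensity that counted as detected lay between 104.4 and 106.3. After background correction, a log2 transformation and removal of probes detected on fewer than 2 of the 4 arrays, 19112 probes were kept. Of these, 302 differed between the groups by limma at a Benjamini-Hochberg adjusted p under 0.05 (1.58%). That number was 133 without ATRA replicate 1, 147 without ATRA replicate 2, 495 without DMSO replicate 1 and 956 without DMSO replicate 2. Whether replicate arrays came from separate cultures is not stated in the labels, and the p-values then cover a spread that may be technical. All 10 embryonic stem cell markers looked at, among them Pou5f1 and Nanog, were detected in both groups. Of these, Zfp42 and Sox2 fell by 0.40 and 0.39 on the log2 scale (limma adjusted p = 0.0041 and 0.019). Without ATRA replicate 1 neither passed (adjusted p = 0.15 and 0.22), and Sox2 did not pass without ATRA replicate 2 (adjusted p = 0.23). Neither passed with a variance estimate that ignored intensity (adjusted p = 0.21 and 0.20), and a second Sox2 probe differed by -0.23 with overlapping groups (adjusted p = 0.51).

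The ligand genes fell into 3 patterns. Edn2 was dim on all arrays, above the detection limit on both ATRA arrays and close to it on both DMSO arrays, Edn1 was detected on every array at a similar level, and Edn3 was detected on none. Edn2 had a deposited intensity of 152.5 and 136.6 on the ATRA arrays, against 108.9 and 100.5 on the DMSO arrays. Both ATRA arrays lay above both DMSO arrays. DMSO replicate 1 was just above the detection limit and DMSO replicate 2 below it, with detection p-values of 0.026 and 0.12. On the log2 scale after background correction, Edn2 was at 6.23 and 5.88 with ATRA, against 4.97 and 4.61 with DMSO. The difference was 1.27 (SE 0.16, 95% interval 0.93 to 1.61), or 2.40-fold, the 8th largest rise among the kept probes. Edn2 was chosen for this difference, so the interval takes no account of that choice and is not a test. The DMSO values were close to background, and the size depended on how background was treated. The difference was 0.46 (1.38-fold) on the log2 of the deposited intensities with no correction, and 0.70 (1.63-fold) with an added offset of 50 in place of 16.

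**Figure D1:**
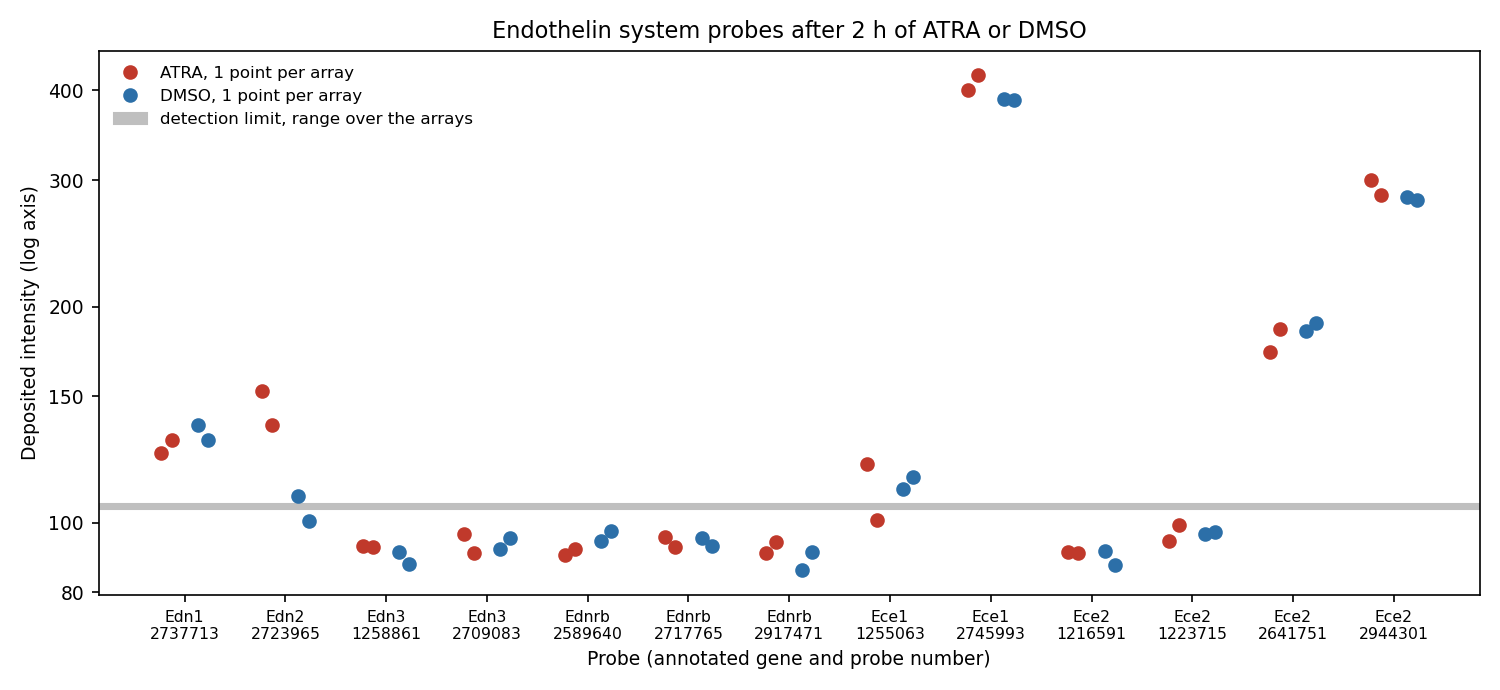
Deposited intensity (log axis) of the 13 endothelin system probes, with red points for the ATRA arrays on the left and blue points for the DMSO arrays on the right of each probe, 1 point per array; the grey band is the range of the detection limit over the arrays (104.4 to 106.3). Edn2 has its ATRA points at 152.5 and 136.6, above the band, and its DMSO points at 108.9 and 100.5, on either side of it, while 7 probes lie below the band on all 4 arrays.

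**Figure D2:**
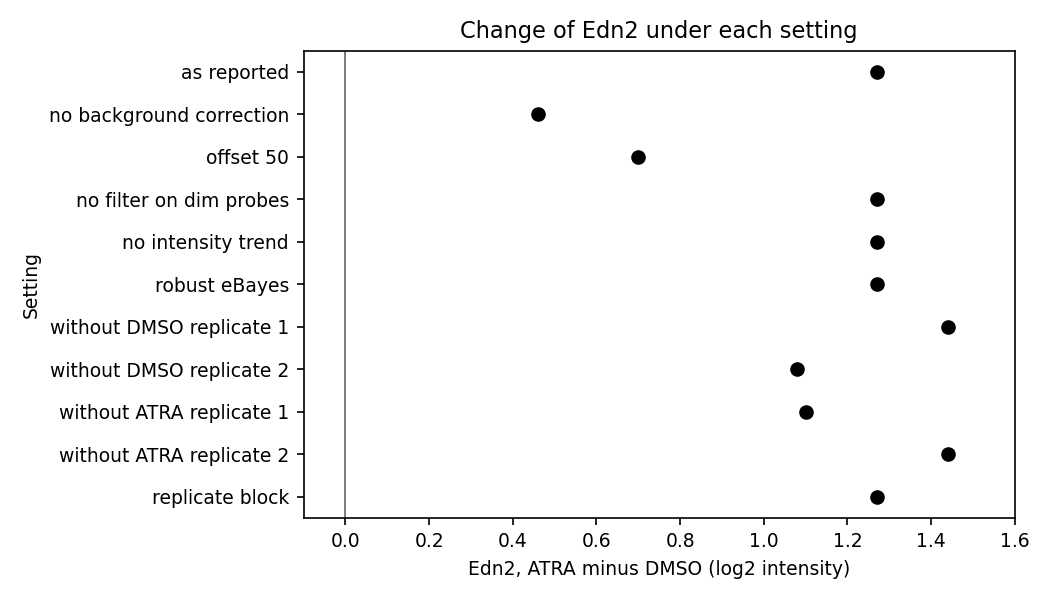
Difference of Edn2 between the ATRA and DMSO groups (log2 intensity) as reported and under 10 other settings, 1 point each. The points lie between 1.08 and 1.44 when any array is left out, and at 0.70 and 0.46 with a larger offset and with no background correction.

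With any 1 array left out the difference of Edn2 was 1.08 to 1.44. Detection on both ATRA arrays and 1 of the DMSO arrays, as for Edn2, was seen for 519 of the 45281 probes (1.15%). The mirrored pattern, detection on 1 of the ATRA arrays and both DMSO arrays, was seen for 623 (1.38%). Among the 2490 other kept probes whose mean log2 intensity lay within 0.25 of that of Edn2, the median absolute difference between the groups was 0.13 and the largest rise was 1.26. Edn2 was chosen for its difference, so its place in that range is a description.

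Edn1, the endothelin of blood vessel walls and of the pharyngeal arches, had intensities of 125.0 and 130.4 on the ATRA arrays, against 136.8 and 130.5 on the DMSO arrays. The ATRA arrays were the lower pair, but the nearest values of the groups were almost equal. The log2 difference was -0.16 (SE 0.14, 95% interval -0.45 to 0.13), and 37.0% of 2079 other kept probes of like level differed by as much or more. The interval of Edn1 included 0.

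Edn3, the ligand of the melanocyte and enteric neural crest lineages, was read by a pair of probes. The annotated transcript of one of them, ILMN_1258861, is not in the RefSeq gene table of GRCm38.p6. The intensities of the pair ran from 90.9 to 96.4 on the ATRA arrays, against 87.7 to 95.3 on the DMSO arrays. All these values were below the detection limit. No change of Edn3 was detectable at this signal.

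The stretches of genome just upstream of the ligand genes are shown because Edn2 differed with ATRA while Edn1 and Edn3 did not pass the call rule or were not detected. Retinoic acid receptors, as dimers with the retinoid X receptors, bind repeats of a 6-base half-site. The sequences are those of RefSeq on GRCm38.p6, covering the 250 bases before the annotated start of each gene on the plus strand, at chr4:120160956-120161205 for Edn2, chr13:42301226-42301475 for Edn1 and chr2:174760369-174760618 for Edn3. Capitals mark each match on either strand to the half-site AGGTCA, and likewise to the variant GGGTCA, to the variant AGTTCA and to the variant GGTTCA.
Edn2: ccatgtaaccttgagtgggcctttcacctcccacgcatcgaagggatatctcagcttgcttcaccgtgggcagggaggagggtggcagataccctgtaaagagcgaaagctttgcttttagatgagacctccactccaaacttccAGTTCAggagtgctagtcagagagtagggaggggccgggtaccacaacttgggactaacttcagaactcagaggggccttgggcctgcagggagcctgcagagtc
Edn1: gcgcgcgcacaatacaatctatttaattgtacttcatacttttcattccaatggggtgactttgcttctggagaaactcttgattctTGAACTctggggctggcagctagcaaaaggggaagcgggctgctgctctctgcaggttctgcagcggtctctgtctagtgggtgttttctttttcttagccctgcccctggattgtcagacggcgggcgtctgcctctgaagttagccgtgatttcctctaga
Edn3: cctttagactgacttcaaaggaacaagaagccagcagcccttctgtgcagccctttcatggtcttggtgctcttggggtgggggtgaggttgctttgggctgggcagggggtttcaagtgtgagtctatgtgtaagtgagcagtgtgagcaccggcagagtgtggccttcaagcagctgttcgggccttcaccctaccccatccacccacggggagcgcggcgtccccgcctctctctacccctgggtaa

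Edn2 held 1 half-site, on the plus strand 105 to 100 bases before the start. Edn1 held 1 on the minus strand, 163 to 158 bases before the start, and Edn3 held 0. A half-site of this kind was present in 38.6% of 32851 such windows over the mouse genes, so its presence does not set Edn2 apart. Direct repeats of the half-site with a spacer of 1, 2 or 5 bases were present in 0 of the 3 ligand windows and in 0.164%, 0.174% and 0.0883% of all windows. A match is a match of letters only, and its absence says nothing of sites elsewhere in or around the genes.

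Ednrb, the receptor that binds all the endothelins equally, was read by 3 probes, and it was not detected by any of them. Intensities ran from 90.2 to 95.5 on the ATRA arrays, against 85.9 to 97.3 on the DMSO arrays, with detection p-values of 0.225 to 0.949. No change of Ednrb was detectable at this signal. It was the one endothelin receptor with probes here, so signal for the other is not known.

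Of the converting enzymes, Ece1 was present in both groups. Ece1 is the main membrane enzyme that activates the endothelins. Its probe ILMN_2745993 had intensities of 400.5 and 419.5 on the ATRA arrays, against 388.8 and 387.8 on the DMSO arrays. The ATRA arrays were the higher pair, by 0.10 on the log2 scale (SE 0.09, 95% interval -0.10 to 0.29). The other Ece1 probe, ILMN_1255063, had intensities of 120.9 and 101.0 with ATRA, against 111.6 and 115.9 with DMSO. Its groups overlapped and one ATRA array was below the detection limit, with a log2 difference of -0.14 (SE 0.20, 95% interval -0.56 to 0.27). That difference was -0.55 without ATRA replicate 1 and 0.26 without ATRA replicate 2.

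Ece2, a related enzyme most active at acid pH, was annotated on 4 probes, which fell into 2 pairs. Probes ILMN_2641751 and ILMN_2944301 were detected on every array. Their annotated transcript, however, is listed in the RefSeq gene table of GRCm38.p6 under Eef1akmt4, a gene for a methyltransferase of translation elongation factor 1A that is a near neighbour of Ece2 and is joined to it in a read-through gene. ILMN_2641751 had intensities of 172.8 and 186.3 with ATRA, against 184.7 and 189.9 with DMSO, and ILMN_2944301 had 299.9 and 286.2 with ATRA, against 283.9 and 281.3 with DMSO. The log2 differences were -0.11 (SE 0.12) and 0.07 (SE 0.10), of opposite sign and with intervals that include 0. Of the other pair, ILMN_1216591 is annotated with a transcript of that read-through gene, and the transcript of ILMN_1223715 is not in the table. These 2 probes had intensities of 90.9 to 99.4 with ATRA, against 87.4 to 97.2 with DMSO, and neither was detected on any array. Detected signal under the symbol Ece2 thus came only from the probes whose transcript is now that of Eef1akmt4.

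**Figure D3:**
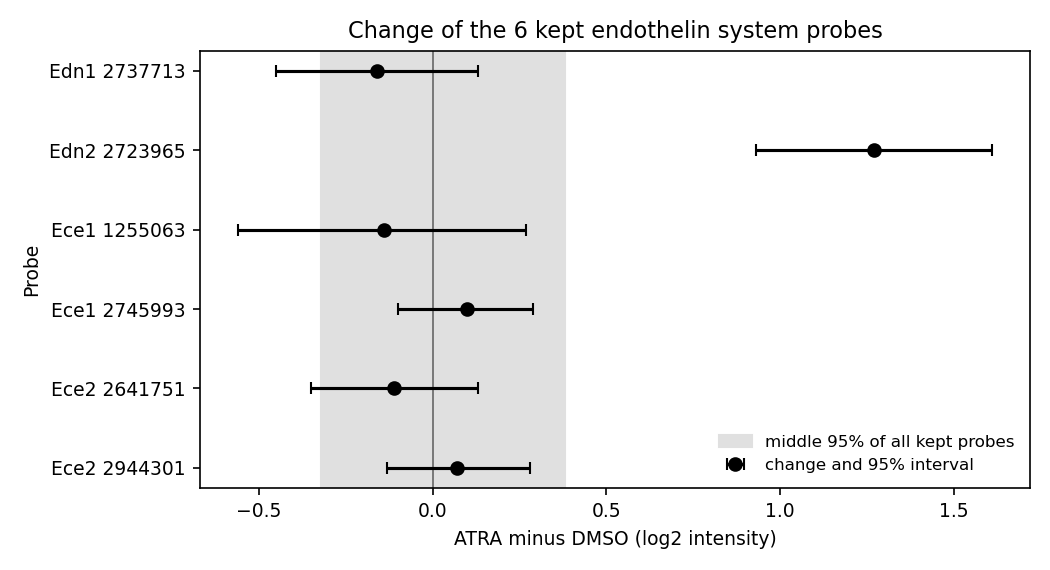
Difference between the ATRA and DMSO groups (log2 intensity) for the 6 kept endothelin system probes, as points with 95% intervals from limma; the grey strip holds the middle 95% of differences of all kept probes (-0.32 to 0.38). Edn2 lies at 1.27, outside the strip, and the other 5 probes lie inside it with intervals that cross 0. The interval of Edn2 takes no account of its choice for this difference and is not a test.

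Over the family, 6 of the 13 probes were kept and 7 were detected on 0 arrays. Of the 6 kept probes, 1 (Edn2) was past the call rule that 1.58% of all kept probes met. In the upward direction, which is that of Edn2, 1.26% of all kept probes met it. The groups did not overlap on 4 of the 6, against 40.8% of all kept probes. The ATRA arrays were the higher pair on 3 of these (Edn2, 1 Ece1 probe and 1 probe annotated as Ece2), against 19.6% of all kept probes. They were the lower pair on 1 (Edn1, whose nearest values were almost equal), against 21.2%. All these counts include Edn2 or rest on a family chosen for its difference, so they are a description. Edn2 was detected on both ATRA arrays and on 1 DMSO array. Its ATRA arrays alone thus met the filter of 2 arrays, and its DMSO arrays alone would not have met it. Fewer cells expressing a gene and less RNA per cell cannot be told apart in bulk samples such as these.

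The genes whose profile was most like that of Edn2 were sought over the 4 arrays, by Euclidean distance between log2 values centred on each gene's mean. With 4 arrays in 2 groups, this mostly finds genes with a difference of similar size. Of 10190 other genes, the 5 nearest were Dleu7, Aurkc, Elavl3, Spsb1 and Clec2e, at distances of 0.29, 0.30, 0.35, 0.37 and 0.37, where the median gene was at 1.33. Aurkc encodes the germline Aurora kinase, Elavl3 a neuronal RNA-binding protein, Spsb1 an adaptor protein with a SOCS box and Clec2e a C-type lectin. Dleu7 shared the position of Edn2 near the detection limit, with intensities of 141.9 and 141.2 on the ATRA arrays and 105.1 and 102.2 on the DMSO arrays. In values centred on each gene's own mean, Edn2 was the highest of the 6 genes on ATRA replicate 1 and the lowest on DMSO replicate 2. A second kept probe gave a smaller difference for Aurkc (0.67), Elavl3 (0.77) and Clec2e (0.19) than the probes compared here (1.24, 0.99 and 1.06).

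**Figure D4:**
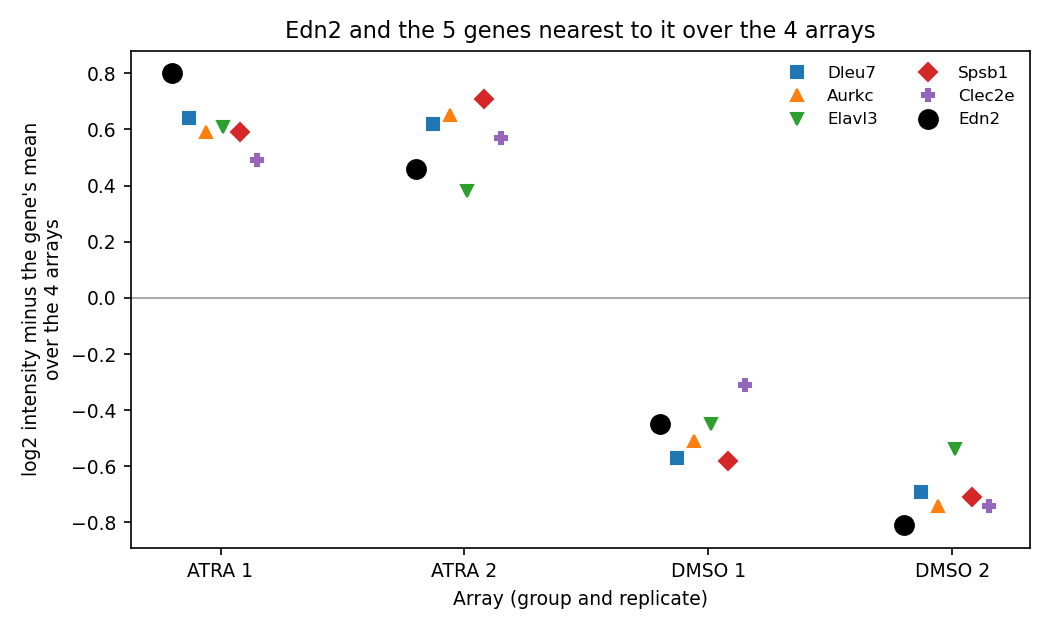
Log2 intensity on each array minus the gene's mean over the 4 arrays, for Edn2 (black circles) and the 5 genes nearest to it, with the ATRA arrays left and the DMSO arrays right. All 6 genes are above their mean on both ATRA arrays and below it on both DMSO arrays; Edn2 is at 0.80 and 0.46 with ATRA and at -0.45 and -0.81 with DMSO.

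Genes related to the endothelins were then described from lists chosen with earlier results of these data known, each gene by its brightest kept probe. Over all 10194 kept genes, 186 were past the threshold (1.82%), 149 higher and 37 lower, and 12.4% had an unadjusted p under 0.05. Of the 19057 genes with a named probe, 53.5% were kept and 42.1% had no detected signal. In the list of peptide processing and clearance, 7 of the 15 genes on the array were kept, and 0 rose or fell by limma (1 of 7 had an unadjusted p under 0.05, against 12.4% of all kept genes), with a median difference of -0.05. None of the kept convertases that could make the first cut passed the threshold, and Pcsk5 was detected on only 1 of the ATRA arrays. Furin, which opens many precursors, averaged 8.73 ± 0.06 with ATRA and 8.78 ± 0.05 with DMSO (log2 intensity, SD, n = 2 each). The differences of Pcsk6, Pcsk7 and Pcsk5, convertases of the same family, were -0.05, -0.07 and -0.08 (limma adjusted p = 0.91 to 0.93). That of Ctsa, a lysosomal carboxypeptidase that can degrade endothelin, was -0.19 (adjusted p = 0.42). A dimmer Furin probe differed by 0.32 (adjusted p = 0.54).

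The list of receptor coupling held 31 genes on the array, of which 22 were kept, with a median difference of -0.05. By limma 1 of the 22 rose and 0 fell, where 1.82% of all kept genes were past the threshold. An unadjusted p under 0.05 was seen for 2 of the 22, against 12.4% of all kept genes. The riser was Plcb3, a phospholipase C-beta that G proteins of the Gq class activate. Plcb3 was at 8.76 and 8.66 on the ATRA arrays, against 8.06 and 8.18 on the DMSO arrays (log2 intensity). The groups stood well apart, by 0.59 (SE 0.09), or 1.51-fold (limma adjusted p = 0.00051), and the rise remained past the threshold with any array left out but not with a variance estimate that ignored intensity (adjusted p = 0.081). The G protein subunit genes Gnai2 and Gna11, which couple receptors to adenylyl cyclase inhibition and to phospholipase C, differed by -0.05 and -0.09 (adjusted p = 0.89 and 0.79). Gna13, another G protein subunit gene, differed by -0.31 (adjusted p = 0.086, and 0.023 without DMSO replicate 2; a dimmer probe 0.00). Prkca, a protein kinase C gene, differed by 0.24 (adjusted p = 0.66). Most genes of this list serve many receptors, and Ednrb itself was undetected.

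Genes of the neural crest and pharyngeal arches, where the endothelin receptors act, were mostly undetected. This list was not limited to targets of the receptors. Of 19 genes with a probe, 14 had no detected signal, against 42.1% of all genes, and 5 were kept, with a median difference of 0.01. Of the 5 kept, 1 was past the limma threshold, against 1.82% of all kept genes. An unadjusted p under 0.05 was likewise seen for 1, against 12.4%. Kit, the receptor tyrosine kinase of melanocyte and germ cell precursors, which stem cells also express, was the 1 gene that rose. Kit was at 10.10 and 10.12 on the ATRA arrays, against 9.55 and 9.47 on the DMSO arrays (log2 intensity). This was a difference of 0.60 (SE 0.08), or 1.51-fold (limma adjusted p = 9.7e-05, and 0.073 with a variance estimate that ignored intensity), and its other probe differed by 0.50 (adjusted p = 0.081). Zeb2, Msx1 and Dlx3, transcription factors of the crest and arches, differed by 0.01, -0.10 and 0.19 (adjusted p = 0.72 to 0.99). Mitf, the master regulator of melanocytes, was detected on both DMSO arrays and 0 ATRA arrays. Its DMSO mean was 1.07-fold above the lowest detected value of the ATRA arrays. The log2 difference of -0.32 (SE 0.18) did not pass the threshold (limma adjusted p = 0.55).

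Among regulators that are known to act on endothelin genes or bind retinoic acid, 21 of 25 genes were kept, and 0 rose or fell by limma (7 of 21 had an unadjusted p under 0.05, against 12.4% of all kept genes), with a median difference of 0.01. The retinoic acid receptor gene Rara differed by 0.43 (adjusted p = 0.15). Rarb, itself a known direct target of retinoic acid, was detected on 0 DMSO arrays and on both ATRA arrays. Its ATRA mean was 1.10-fold above the lowest detected value of the DMSO arrays. The log2 difference of 0.54 (SE 0.19) did not pass the threshold (limma adjusted p = 0.19, and 0.043 without background correction). Gata2, a regulator of Edn1 in endothelium, was at 5.44 and 5.39 with ATRA, against 5.79 and 5.88 with DMSO, a difference of -0.42 (adjusted p = 0.17). Arnt, the partner of the hypoxia-inducible factors, differed by 0.28 (adjusted p = 0.18, and 0.0042 without DMSO replicate 2), while its 5 dimmer kept probes differed by -0.14 to 0.07. The brightest members, Klf2 and Rxrb, differed by -0.07 and -0.06 (adjusted p = 0.83 and 0.88), and a dimmer Rxrb probe by 0.13.

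Other vasoactive peptides and their receptors were also mostly undetected. Of 31 genes with a probe, 23 had no detected signal, against 42.1% of all genes. The 6 kept genes gave 0 rises or falls by limma (1 had an unadjusted p under 0.05, against 12.4% of all kept genes) and a median difference of -0.08. The natriuretic peptide receptor genes Npr2 and Npr3 differed by -0.38 and 0.25 (adjusted p = 0.38 and 0.58). Npr1 was detected on 0 ATRA arrays, and its DMSO mean was 1.11-fold above the lowest detected value of the ATRA arrays. Its log2 difference of -0.27 (SE 0.18) did not pass the threshold (limma adjusted p = 0.60). Nos3, the nitric oxide synthase of endothelium, and Ramp2 and Ramp3, partners of the adrenomedullin receptor, differed by -0.06, -0.09 and 0.05 (adjusted p = 0.89 to 0.95), and a dimmer Ramp3 probe by -0.27.

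**Figure D5:**
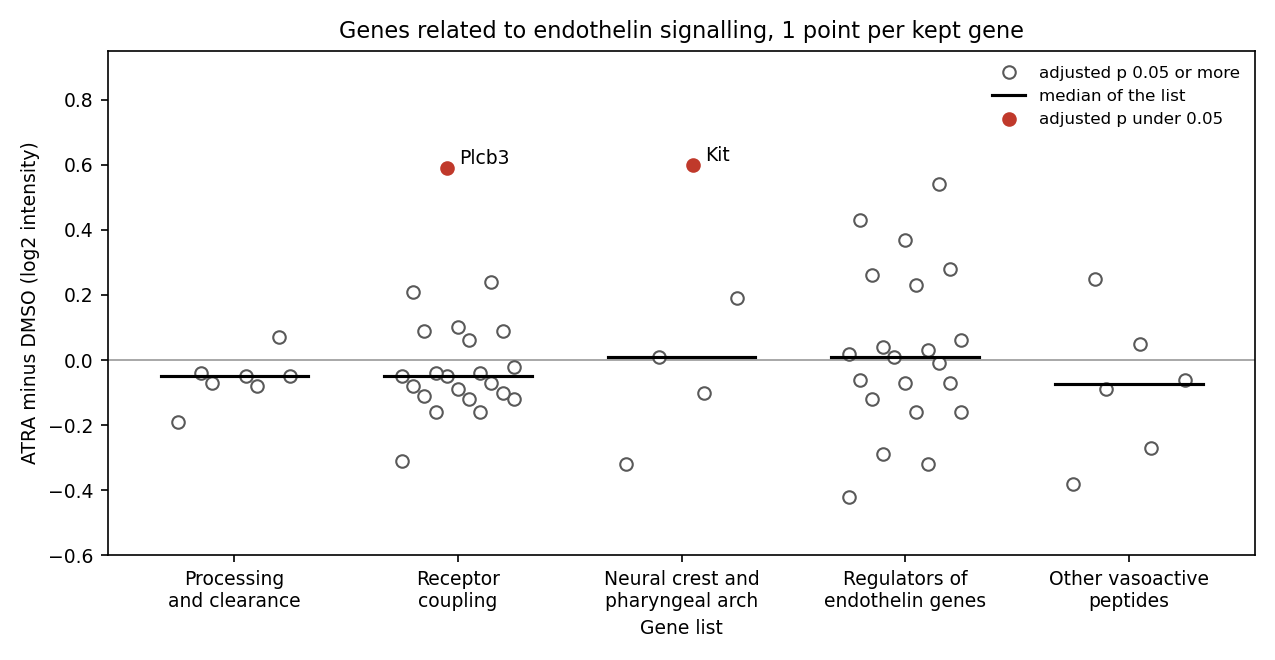
Difference between the ATRA and DMSO groups (log2 intensity) of the kept genes in 5 lists related to endothelin signalling, 1 point per gene by its brightest kept probe, with the median of each list as a black line. Plcb3 (0.59) and Kit (0.60) are the filled points, past the limma threshold, and the list medians lie between -0.08 and 0.01.

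Markers of cells that make or answer endothelins were set beside the rise of Edn2. Of 10 endothelial markers 6 were kept, and the sum of their background-corrected intensities was 907 and 938 on the ATRA arrays, against 943 and 916 on the DMSO arrays. Of 8 smooth muscle markers 4 were kept, with sums of 4822 and 4794, against 5551 and 4858. For 3 kept markers of neural crest and melanocytes the sums were 358 and 379 with ATRA, against 455 and 447 with DMSO, and for 4 fibroblast markers they were 154 and 121, against 145 and 138. None of the genes kept in these 4 lists was past the threshold by limma (0 of 17), and 4 had an unadjusted p under 0.05, against 12.4% of all kept genes. Of these 4, 2 were neural crest markers, whose 3 kept genes were all lower with ATRA (Ngfr -0.22, Pmel -0.31 and Mitf -0.32). The rest were 1 endothelial and 1 smooth muscle marker. The largest differences in those lists, of Esam (-0.40) and Smtn (-0.24), were also lower with ATRA (limma adjusted p = 0.14 and 0.37). The genes higher with ATRA were 3 of 6 endothelial, 0 of 4 smooth muscle and 2 of 4 fibroblast markers. Of 10 primitive endoderm markers 5 were kept, with sums of 1806 and 1774, against 1847 and 1809. One of these, Gata6, was higher by 0.75 (limma adjusted p = 0.027, but 0.62 without ATRA replicate 1 and 0.082 without DMSO replicate 1). Gata6 also missed the threshold with no filter on dim probes and with a variance estimate that ignored intensity (adjusted p = 0.080 and 0.15), and its difference was 0.25 with no background correction and 0.38 with an offset of 50. Among these sums, only that of the fibroblast markers on ATRA replicate 1 lay above both DMSO arrays. A single gene carried much of several sums: Acta2 made up 95.1% to 95.7% of the smooth muscle sum and Egfl7 65.1% to 66.5% of the endothelial sum. Each list held both detected and undetected markers. Detected on all 4 arrays were Egfl7, Pecam1, Tek and Vwf of endothelium, Acta2 of smooth muscle, Ngfr of neural crest, Col1a1 and Thy1 of fibroblasts, and Sparc and Col4a1 of endoderm. No signal was detected for Kdr and Tie1 of endothelium, Myh11 and Cnn1 of smooth muscle, Sox10 and Foxd3 of neural crest, Col1a2 and Dcn of fibroblasts, or Sox17 and Foxa2 of endoderm. The part of any such cells in the rise of Edn2 was not tested.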

How the data were processed

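RNA of 4 samples of E14 cells was hybridised to Illumina bead arrays with a Cy3 label; the values came from GenomeStudio, per the submitters' processing notes, with no version or further step given in the sources used here. The authors deposited linear intensity values with a detection p-value per probe and array, per the file headers. Once sorted, the 4 arrays differed nowhere by more than 0.228, as after quantile normalization, which would hide any shift shared by most probes. A deposited series matrix held the same intensity values minus 93.5 (to within 0.00617), with no centring.

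Values were made with neqc of limma 3.58.1 (R 4.3.3), with the negative controls estimated through the detection p-values and an offset of 16. The offset makes differences of dim probes smaller, but whether the reported ones are too small or too large is not known. Probes detected on at least 2 of the 4 arrays were kept (19112 of 45281). Groups were compared by limma's lmFit and eBayes (intensity trend on) with Benjamini-Hochberg adjustment over all kept probes. The number of arrays limits the precision, and an exact permutation test of 2 against 2 cannot give a p under 0.333. A gene undetected on both arrays of a group is given as "at least", against the lowest detected value.

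Probes were named from the platform annotation (34885 with 1 symbol, 18 with several, 10378 unnamed here). The members and lists were chosen with earlier results of these data known. From each related list, the genes past the threshold, the 3 largest differences and the 3 brightest genes are named, along with the 5 genes nearest to Edn2. Alternatives were no background correction, an offset of 50, other detection filters, no intensity trend, robust eBayes, each array left out and a replicate block. Arrays that share a replicate number did not deviate together, and the main comparison did not pair them.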

Additional observations from a re-analysis of the deposited data

How the results depend on the processing

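When detection on all 4 arrays was required, Edn2 was not kept and 0 endothelin system probes passed the threshold; with the other settings 1 did, which is no separate support, since Edn2 was chosen for its difference on these arrays. Probes past the threshold numbered 74 without the intensity trend, and their number ran from 133 to 956 over the 4 fits that left out 1 array. The receptor coupling list had 0 genes past the threshold without the trend, 1 to 2 with an array left out and 2 with the replicate block, and the neural crest list had 0 without the trend. The list of regulators had 1 with no background correction and 0 to 1 with an array left out. Replicates that share a number did not deviate together (r = -0.00 across kept probes). With 2 arrays per group this cannot exclude that the arrays were paired by culture or batch. With the replicate block 492 probes passed. With 1 array left out, differences that had not passed took either sign for Pcsk7 (-0.28 to 0.14), Pcsk5 (-0.24 to 0.09), Zeb2 (-0.13 to 0.16), Msx1 (-0.24 to 0.04), Klf2 (-0.16 to 0.02), Rxrb (-0.13 to 0.01), Nos3 (-0.13 to 0.00), Ramp3 (-0.07 to 0.16) and Ramp2 (-0.20 to 0.02). The cause of these shifts was not tested. Probes below the detection limit of 104.4 to 106.3 allow no statement on change.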
